A study of Mus musculus with 10 samples.

Results

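Chromatin accessibility after 4 hours of forskolin was compared with that of control cells in adipocytes grown from the immortalized MAP line of mouse adipocyte progenitors. All peaks of the deposited count table entered the comparison, 122984 in number, and 4 of the 10 libraries of the study belong to it. They are S3 and S4, from adipocytes treated with forskolin for 4 hours, and S1 and S2, from control adipocytes, which the series text describes as given vehicle. The sources used here do not give the dose of forskolin. Before treatment, cells of both groups had been brought to confluence and differentiated with insulin, isobutylmethylxanthine, dexamethasone and rosiglitazone (1 µM), and then kept in insulin and rosiglitazone. Control cells had therefore also met a phosphodiesterase inhibitor and a PPARγ agonist earlier in culture. Treatment was given at day 7 to 8, and 10000 sorted nuclei went into each library. MAP cells are a line in culture, and separate cultures for the 2 libraries of a group are not stated in the labels, so the p-values measure the spread between libraries, which may be technical. The other 6 libraries (forskolin for 1 day or 3 days, and rosiglitazone for 3 days) entered the fit for the estimate of spread.

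Forskolin activates adenylyl cyclase directly and so raises cAMP, the messenger through which adrenergic receptors act on fat cells. In adipocytes cAMP activates protein kinase A, which sets off lipolysis, phosphorylates CREB at cAMP response elements, and starts the programme of thermogenic genes. Phosphodiesterases break cAMP down and several of their genes are themselves induced by it. ATAC-seq reads open chromatin: a transposase inserts sequencing adapters where DNA is not packed, and the number of reads in a peak is a measure of how open that stretch is. Open distal elements are often enhancers, while the promoters of many widely used genes, rich in CpG, are open in most cells.

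The peak table held 15062740 and 16519865 counts in the forskolin libraries, against 10410233 and 13055443 in the control libraries. Pearson's r of log2 CPM over peaks was 0.958 between the forskolin libraries and 0.942 between the control libraries, and 0.852 to 0.871 across the groups. The 8 highest peaks took 3.35% and 3.87% of counts after forskolin, against 5.66% and 4.92% in control. Levels are CPM, counts scaled to a common library size with TMM factors, which were 1.01 and 1.00 after forskolin and 0.952 and 0.927 in control. Scaling to library size alone raised the median log2 fold change of all peaks to 0.10, against −0.00496 with TMM, and such values are given beside the counts that depend on it. A peak or gene is said to have risen or fallen where edgeR's quasi-likelihood test gave p below 0.05 after Benjamini-Hochberg adjustment, made over all tested peaks or genes. Log2 fold changes are forskolin over control, with their standard error (SE). Pairs of levels are for S3 and S4, then for S1 and S2.

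The promoters of 8 genes are printed as examples of opened and closed gene starts, and do not stand for all such starts. The first 5 had a risen peak at the start and hold matches to motifs of factors known to act downstream of cAMP or of growth signals, and the last 3 belong to a fat-cell hormone, a fat-cell protease and smooth muscle actin, whose peak fell. The genes were picked with their values known. Each sequence is the 250 bases upstream of the annotated start, 5′ to 3′ on the strand of the gene, from RefSeq (GRCm38.p6). Capitals mark matches, on either strand, to TGACGTCA (the full cAMP response element bound by CREB), its short form TGACG alone, to the site TGANTCA (bound by AP-1, the Fos and Jun factors) and TTGCNNAA (bound by C/EBP factors).
Nr4a1: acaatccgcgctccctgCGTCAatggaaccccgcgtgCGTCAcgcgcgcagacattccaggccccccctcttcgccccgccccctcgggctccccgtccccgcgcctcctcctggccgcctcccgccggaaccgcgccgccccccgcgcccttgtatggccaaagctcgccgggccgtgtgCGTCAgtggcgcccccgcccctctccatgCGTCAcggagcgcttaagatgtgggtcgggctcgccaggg
Slc25a25: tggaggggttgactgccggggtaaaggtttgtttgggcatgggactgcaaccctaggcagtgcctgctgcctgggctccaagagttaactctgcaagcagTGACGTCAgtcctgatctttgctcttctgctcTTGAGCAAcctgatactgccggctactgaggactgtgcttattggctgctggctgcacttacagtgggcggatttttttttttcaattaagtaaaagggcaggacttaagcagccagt
Hal: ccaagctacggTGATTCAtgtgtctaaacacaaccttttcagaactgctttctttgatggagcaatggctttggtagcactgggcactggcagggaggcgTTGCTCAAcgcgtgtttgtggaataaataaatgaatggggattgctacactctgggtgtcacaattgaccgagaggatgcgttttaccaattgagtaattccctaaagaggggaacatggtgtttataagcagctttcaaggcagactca
Dclk1: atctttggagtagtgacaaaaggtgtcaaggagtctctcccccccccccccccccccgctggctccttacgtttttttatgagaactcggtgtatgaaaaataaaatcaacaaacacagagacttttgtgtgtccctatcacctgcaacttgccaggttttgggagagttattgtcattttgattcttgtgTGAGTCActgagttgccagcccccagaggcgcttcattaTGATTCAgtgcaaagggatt
Glyat: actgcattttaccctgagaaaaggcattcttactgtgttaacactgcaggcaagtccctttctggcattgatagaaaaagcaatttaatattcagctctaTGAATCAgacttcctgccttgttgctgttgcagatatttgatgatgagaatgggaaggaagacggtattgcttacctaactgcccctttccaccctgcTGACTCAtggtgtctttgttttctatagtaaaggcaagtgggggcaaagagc
Adipoq: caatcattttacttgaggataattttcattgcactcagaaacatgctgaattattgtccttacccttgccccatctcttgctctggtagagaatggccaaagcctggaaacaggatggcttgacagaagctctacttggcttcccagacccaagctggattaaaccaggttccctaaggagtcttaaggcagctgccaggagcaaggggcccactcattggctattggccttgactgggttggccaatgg
Cfd: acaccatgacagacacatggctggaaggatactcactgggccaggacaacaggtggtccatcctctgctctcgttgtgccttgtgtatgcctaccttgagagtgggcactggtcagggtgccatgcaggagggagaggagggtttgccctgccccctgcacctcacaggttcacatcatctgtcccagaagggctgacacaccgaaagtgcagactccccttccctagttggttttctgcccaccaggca
Acta2: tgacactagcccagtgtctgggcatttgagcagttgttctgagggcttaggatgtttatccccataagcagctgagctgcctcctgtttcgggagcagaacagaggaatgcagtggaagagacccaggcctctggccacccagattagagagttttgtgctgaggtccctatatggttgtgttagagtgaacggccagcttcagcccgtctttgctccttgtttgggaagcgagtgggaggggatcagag
They lie at chr15:101266596-101266845 (Nr4a1, plus strand), chr2:32424067-32424316 (Slc25a25, minus strand), chr10:93488518-93488767 (Hal, plus strand), chr3:55461478-55461727 (Dclk1, plus strand), chr19:12633058-12633307 (Glyat, plus strand), chr16:23146286-23146535 (Adipoq, plus strand), chr10:79890603-79890852 (Cfd, plus strand) and chr19:34255374-34255623 (Acta2, minus strand).

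At Nr4a1, an orphan nuclear receptor and classic early cAMP gene, the promoter holds 4 matches to the short element, and its peak had 67.4 and 65.5 CPM after forskolin, against 35.7 and 38.5 CPM in control (log2 fold change 0.84 ± 0.12, adjusted p = 3.74e-08). Slc25a25, a mitochondrial ATP carrier, has the full element at the start shown, and the peak there had 49.4 and 48.4 CPM after forskolin, against 29.1 and 32.0 CPM in control (log2 fold change 0.68 ± 0.12, adjusted p = 1.13e-05). In both cases the forskolin libraries lay well above the control libraries. The AP-1 motif stands in the promoters of Hal (histidine ammonia lyase), Dclk1 (a doublecortin-like kinase, at an internal start) and Glyat (glycine N-acyltransferase). The Hal peak had 32.5 and 30.4 CPM after forskolin, against 8.58 and 10.7 CPM in control (log2 fold change 1.70 ± 0.15, adjusted p = 2.52e-15). At Dclk1 the peak had 21.6 and 21.6 CPM after forskolin, against 9.09 and 4.79 CPM in control (log2 fold change 1.66 ± 0.19, adjusted p = 2.58e-11). The Glyat peak was low, with 4.67 and 3.98 CPM after forskolin, against 1.31 and 0.661 CPM in control (log2 fold change 2.16 ± 0.43, adjusted p = 4.62e-05). None of the motifs searched has a match in the printed bases of Adipoq, Cfd and Acta2. As these genes were picked, this contrast does not describe risen and fallen starts in general. Over all annotated starts read, described below, TGACG was in 31.4% of fallen and 24.2% of risen ones. For TGANTCA the shares were 3.56% of fallen and 38.7% of risen ones.

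Across promoters, the AP-1 motif was the one whose share differed most between risen and other starts. Windows of 300 bases (250 upstream and 50 downstream of the start) were read for 21263 annotated starts. A match describes letters, not a bound factor. TGANTCA was present in 72 of 186 windows with a risen peak (38.7%), in 3.56% of windows with a fallen peak, in 5.40% of those with a peak that was not called and in 6.99% of all windows. Windows with a risen peak also had the highest share where CpG were few. With at most 10 CpG it was found in 54 of 125 windows with a risen peak (43.2%), in 41 of 427 with a fallen peak (9.60%), in 172 of 1241 with a peak not called (13.9%) and in 10.9% of all 9626 such windows. The C/EBP motif TTGCNNAA was in 26.3% of risen, 7.58% of fallen and 10.2% of all windows. For the full cAMP response element the shares were low: TGACGTCA was in 1.61% of risen, 3.01% of fallen, 3.52% of not called and 2.23% of all windows. TGACG was in 24.2% of risen, 31.4% of fallen, 33.2% of not called and 23.6% of all windows. All windows include 9533 without a tested peak, of which 0.871% held TGACGTCA and 12.7% TGACG. With at most 10 CpG the order turned for TGACG, found in 25 of 125 risen windows, 13.6% of fallen, 16.0% of not called and 11.3% of all windows. TGACGTCA was in 2 of the 125 (1.60%), 0.703% of fallen, 1.29% of not called and 0.696% of all. Its risen share rests on those 2 windows and lay near that of windows not called. For TTGCNNAA the shares at most 10 CpG were 32.0% of risen, 15.9% of fallen, 14.7% of not called and 14.5% of all. TGACG includes every full element. The E-box CACGTG was in 5.91% of risen, 11.0% of fallen and 7.84% of all windows. Base composition moved with the direction: the median window held 6 CpG and 52.0% GC where the peak had risen, and 25 CpG and 64.3% GC where it had fallen. Its part in the motif shares beyond the split at 10 CpG was not tested. Windows of 1 gene can overlap, and the 186 windows covered 171 peaks, of which 38.0% held TGANTCA.

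After 4 hours of forskolin more sites had opened than closed, and by larger folds. Of 118962 peaks tested, 21999 rose (18.5% of those tested) and 15405 fell (12.9%), so that 58.8% of the 37404 called peaks had risen (68.9% with library size alone). The number of risen peaks was 14923 to 17932 when 1 library was left out, and that of fallen peaks was 8595 without S2, 8329 without S3 and otherwise at least 10464. Of the risen peaks 15709 changed at least 2-fold, 5084 at least 4-fold and 1186 at least 8-fold. For fallen peaks the numbers were 6874, 1333 and 199. Risen peaks were weak in control: their median level was 4.92 CPM after forskolin, against 1.85 CPM in control. Fallen peaks were stronger and wider sites, with a median of 4.08 CPM after forskolin, against 8.06 CPM in control, and a median width of 545 bp, against 396 bp for risen and 334 bp for peaks not called. A group of 777 risen peaks had at most 3 counts over both control libraries, with a median of 38 counts (1.20 CPM) over both forskolin libraries. The reverse was rarer: 114 fallen peaks had at most 3 counts over both forskolin libraries. Both forskolin libraries lay above both control libraries at 21954 of the risen peaks, and below both at 15348 of the fallen peaks. The calls were made on these same libraries, so this separation follows largely from the call and is no further support for it. Its share over all tested peaks was not counted. In simulated data with 100 peaks changed 2-fold and 100 changed 4-fold among 118954, this test found 17% and 73% of them. Far more peaks were called in the real data, which alters the adjusted threshold, so these shares do not give the power of this comparison. Small changes at weak peaks may have gone undetected.

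The direction depended on position relative to gene starts. Within 500 bp of an annotated start lay 10620 tested peaks, and of these 244 rose (2.3%) and 2845 fell (26.8%). Of the 108342 other peaks 21755 rose (20.1%) and 12560 fell (11.6%). Over all promoter peaks, called or not, the median log2 fold change was −0.24 (interquartile range −0.35 to −0.10), against 0.07 (−0.44 to 0.75) elsewhere. These values depended on scaling. With library size alone the median at starts was −0.14 and 1630 promoter peaks fell. With offsets that follow the mean level it was −0.08, with an upper quartile of 0.04, and 1077 fell and 418 rose. The number of fallen promoter peaks was 744 without S2, 731 without S3, 1418 without S4 and 1976 without S1, and that of risen ones 151 without S3. The share of risen peaks at starts was 3.07% with library size alone and 3.94% with offsets that follow the level, against 22.5% and 18.2% elsewhere. The share of fallen peaks at starts was 15.4% with library size alone, against 8.77% elsewhere. With offsets that follow the level it was 10.1%, against 12.9% elsewhere. The higher share of falls at starts was therefore not seen under that scaling, while the lower share of rises was.

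**Figure D1:**
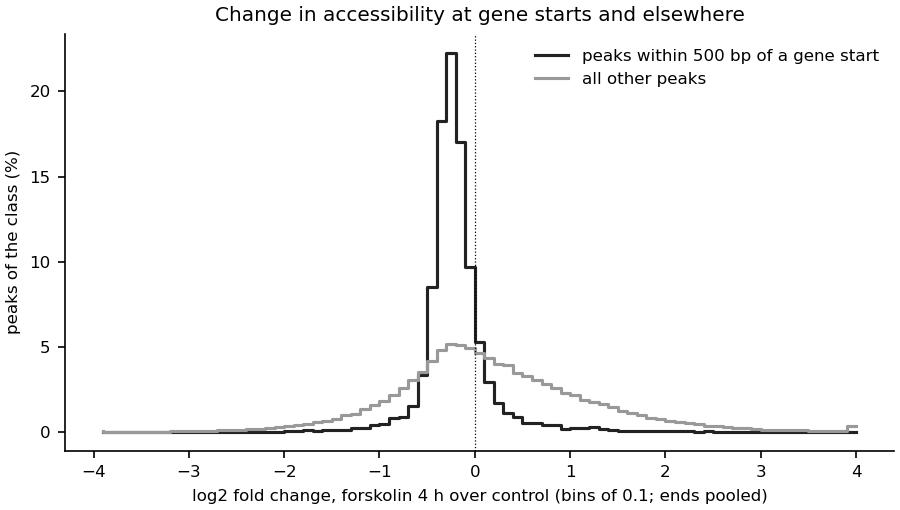
Share of peaks (%, y axis) in each bin of the log2 fold change of forskolin for 4 hours over control (x axis), for peaks within 500 bp of a gene start and for all others. Peaks at starts form a narrow hill left of 0 with a median of −0.24, while the others spread over a wide range with a long right side.

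The share of risen peaks grew with distance, and wide peaks fell more often than narrow ones. It was 18.9% at 501 to 5000 bp from a start, 19.3% at 5001 to 20000 bp, 20.4% at 20001 to 100000 bp and 22.3% beyond, and the share of fallen peaks was 12.0%, 11.6%, 11.5% and 10.3%. Of the peaks wider than 1200 bp, 5.33% rose and 36.3% fell, and 51.1% of them were promoter peaks. With promoter peaks left out the shares in this width class were 9.98% and 30.0%. Width went with level: the median in control was 0.849 CPM for peaks of 1 to 200 bp and 41.1 CPM above 1200 bp. A change of given size is more easily called at a higher level, and all shares in this paragraph were counted with TMM scaling alone. The part of level and scaling in them was not tested. The shares also differed by level. In 5 classes of equal size by level, from lowest to highest, 4.79%, 5.57%, 8.92%, 5.94% and 1.15% of promoter peaks rose, against 10.2%, 17.5%, 22.5%, 26.8% and 25.4% of other peaks. For falls the shares were 2.39%, 6.03%, 10.6%, 13.3% and 31.7% at promoters, against 4.36%, 7.98%, 11.2%, 15.4% and 23.1% elsewhere, so promoter peaks fell more often than others only in the highest class. That class held 8281 of the 10620 promoter peaks, and levels within it differed, with medians of 33.9 CPM after forskolin and 40.0 CPM in control at promoters, and 16.4 and 15.5 CPM elsewhere. By chromosome the share of risen peaks was highest on chromosome 3 (21.6%) and, among autosomes, lowest on chromosome 7 (15.1%). The share of fallen peaks was highest on chromosomes 8 (16.0%) and 11 (15.5%).

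**Figure D2:**
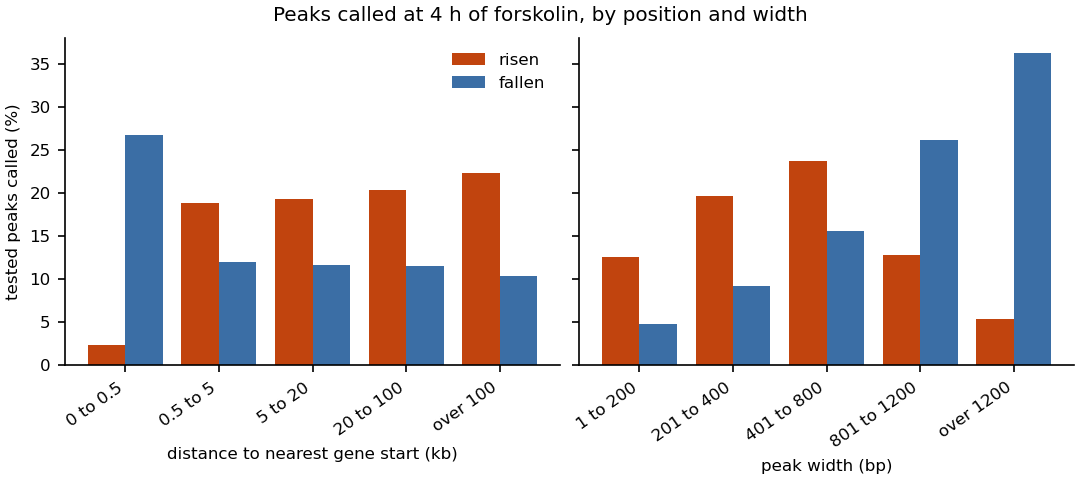
Share of tested peaks called risen or fallen (%, y axis) after 4 hours of forskolin, by distance to the nearest gene start (left) and by peak width (right). The class within 500 bp of a start is the only distance class in which more peaks fell (26.8%) than rose (2.3%).

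Neighbouring peaks tended to move together, and many genes had called peaks in both directions. Of 70843 pairs of adjacent peaks at most 10 kb apart, 8608 had both peaks called. In 3858 of these both had risen and in 2094 both had fallen, so 69.1% moved in the same direction, where the shares of risen and fallen calls alone would give 51.6%. Among 6332 genes with at least 2 called peaks, 1454 had only risen peaks, 921 only fallen ones and 3957 (62.5%) had both. The share with both grows with the number of called peaks in a gene. It was not set against an expected share and cannot be compared with that of the pairs. When all peaks of a gene were summed, 2109 of 16999 genes rose (12.4%) and 3900 fell (22.9%). This split turned with the scaling: 35.1% of the called genes had risen with TMM, 56.9% with library size alone and 57.8% with offsets that follow the level. Without S2 the genes risen and fallen were 1334 and 1408, without S3 1238 and 1528, and without S4 1644 and 2288. Gene sums are therefore given below beside counts with library size alone, and beside the gene's risen and fallen peaks. Counts with 1 library left out are given for the gene lists, but not for most lists of cell type markers.

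Peaks named here lay in a gene or at most 50000 bp from one, with a mean level at or above the median, 2.70 CPM. Only called peaks whose forskolin libraries both lay beyond both control libraries were taken. Those assigned to predicted (Gm), Riken, olfactory or vomeronasal genes were passed over. Among the peaks left, the most opened site lay in Mitf, the melanocyte and osteoclast transcription factor gene of the MiT family. That peak (chr6:97921401-97921917) had 6.84 and 6.10 CPM after forskolin, against 0 and 0.165 CPM in control. The control level rested on 2 counts, against 205 counts after forskolin, which is 71.0 times as many after scaling (exact 95% interval 19.4 to 590.4). A site in Rorb, an orphan nuclear receptor of the ROR family, at chr19:19016721-19017514 had 7.23 and 8.87 CPM after forskolin, against 0.202 and 0.248 CPM in control (log2 fold change 5.10 ± 0.49, adjusted p = 6.44e-14). Near Znrf4, a ubiquitin ligase gene, the peak at chr17:56501077-56501502 had 5.92 and 7.79 CPM after forskolin, against 0.303 and 0.330 CPM in control (log2 fold change 4.40 ± 0.46, adjusted p = 1.39e-12). The site in Farsb, a subunit of phenylalanyl-tRNA synthetase, had 7.36 and 4.35 CPM after forskolin, against 0.303 and 0.248 CPM in control (log2 fold change 4.38 ± 0.54, adjusted p = 4.29e-10). The site in Kdm1b, a histone demethylase, had 5.33 and 6.28 CPM after forskolin, against 0.202 and 0.496 CPM in control (log2 fold change 3.97 ± 0.46, adjusted p = 6.45e-11). Others that opened this far were assigned to Fam81a, Ttc39b and Gpcpd1, with log2 fold changes of 3.87, 3.86 and 3.86. All 8 sites were nearly closed in control, at 0.661 CPM or less in each control library, and the forskolin libraries lay between 4.35 and 10.1 CPM.

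Among peaks left by the same rule, with its level of 2.70 CPM, the sites that closed most changed by −3.20 to −2.73 on the log2 scale. Weaker peaks, among them the 114 with at most 3 counts after forskolin, and peaks far from genes are not named. The peak in Vac14, which encodes a scaffold of the PIKfyve lipid kinase complex, at chr8:110663118-110663660 had 3.16 and 4.11 CPM after forskolin, against 26.8 and 31.5 CPM in control (log2 fold change −3.00 ± 0.18, adjusted p = 7.11e-23). Near Zc3h4, a zinc finger gene, the site at chr7:16444665-16445144 had 0.394 and 0.966 CPM after forskolin, against 4.74 and 7.93 CPM in control (log2 fold change −3.20 ± 0.41, adjusted p = 1.6e-09). In Lmcd1, a LIM domain protein gene, the peak at chr6:112320703-112321212 had 0.460 and 1.81 CPM after forskolin, against 10.5 and 7.60 CPM in control (log2 fold change −2.95 ± 0.31, adjusted p = 2.42e-12). The forskolin libraries of the Vac14 site were close together and far below the control libraries, while those of the Lmcd1 site differed among themselves. Peaks assigned to Chd9 and Smarcb1, both parts of chromatin remodelling machinery, and to Pigu, Mmd and Katnal1 fell with log2 fold changes between −2.81 and −2.73. All 16 peaks kept their call under every alternative run. Whether a peak inside a gene is exonic or intronic was not analysed here.

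**Figure D3:**
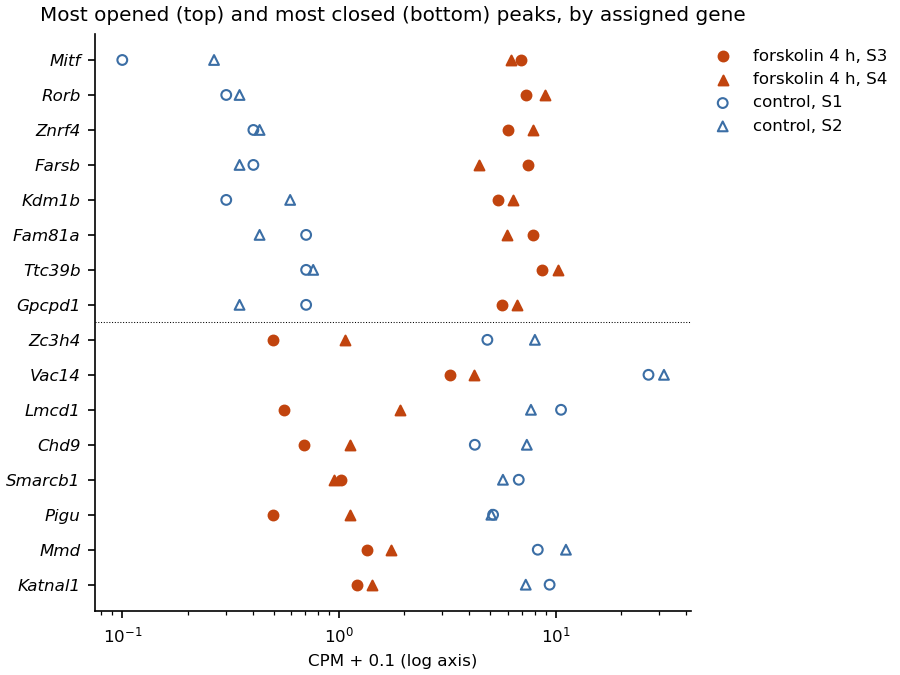
Level of the 8 most opened and the 8 most closed peaks among those at most 50000 bp from a gene, with a mean level of at least 2.70 CPM. Levels are shown in each library (CPM plus 0.1 on a log axis, x axis), named by the assigned gene (y axis). Only peaks at which S3 and S4 both lay beyond S1 and S2 were taken, so the groups lie apart in every row by selection.

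At gene starts the same limit on level applied, at or above 2.70 CPM, and weaker promoter peaks with larger changes are not named. The groups again had to lie apart for a peak to be named. The start of Plekha8, a lipid transfer protein gene, had 7.56 and 6.04 CPM after forskolin, against 1.01 and 0.578 CPM in control (log2 fold change 3.12 ± 0.35, adjusted p = 3.43e-11) at chr6:54602915-54603289. The peak at Tlr9, the receptor for unmethylated CpG DNA, had 8.94 and 7.18 CPM after forskolin, against 1.21 and 0.743 CPM in control (log2 fold change 3.06 ± 0.32, adjusted p = 2.03e-12) at chr9:106221602-106222275. Slc1a7, a glutamate transporter, had 7.96 and 8.75 CPM after forskolin, against 1.21 and 1.16 CPM in control (log2 fold change 2.81 ± 0.31, adjusted p = 9.14e-12). Among the 6, the highest level was at Gpr35, a G protein-coupled receptor, with 24.2 and 29.1 CPM after forskolin, against 6.76 and 5.37 CPM in control (log2 fold change 2.15 ± 0.17, adjusted p = 4.47e-17). Tpst2 (a protein tyrosine sulfotransferase) and Kcnk10 (a potassium channel) followed with log2 fold changes of 2.41 and 2.07. The falls named by the same rule lay between −1.95 and −1.79 on the log2 scale. Slco2b1, an organic anion transporter, had 5.06 and 4.29 CPM after forskolin, against 15.6 and 16.6 CPM in control (log2 fold change −1.79 ± 0.20, adjusted p = 1.26e-11). Gpsm1, a regulator of inhibitory G proteins, had 3.02 and 2.78 CPM after forskolin, against 8.48 and 12.0 CPM in control (log2 fold change −1.83 ± 0.22, adjusted p = 4.23e-10). The other four were Pdcd4 (−1.95), Sertad4 (−1.87), Ifitm6 (−1.81) and Hopx (−1.79) on the log2 scale.

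The gene with the most risen peaks was Pde4d, a cAMP-specific phosphodiesterase, with 37 of 89. After it came Lpp with 23 of 81, Fndc3b with 22 of 66, Pde10a with 22 of 49 and Frmd4a with 21 of 58. These are long genes, from 295 kb (Fndc3b) to 1302 kb (Pde4d), and many peaks are assigned to each. Counts per gene in this paragraph are to be read against 18.5% risen and 12.9% fallen among all tested peaks. Summed over its peaks, Pde4d had 469 and 453 CPM after forskolin, against 285 and 273 CPM in control (log2 fold change 0.72 ± 0.05, adjusted p = 1.56e-09). Most fallen peaks were counted at Rad51b (21 of 77), Gse1 (17 of 72) and, with 15 each, Gli2, Trabd2b and Tns1. At these genes risen peaks were also present, from 5 at Gli2 to 11 at Trabd2b, and the sums for Trabd2b and Tns1 were not called (log2 fold changes −0.09 and −0.12, adjusted p = 0.204 and 0.074). The sum of Gse1 fell by 0.18 on the log2 scale (adjusted p = 0.00641), but not with library size alone (adjusted p = 0.211), without S2 (0.147) or without S3 (0.087).

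Genes of the cAMP pathway itself were followed in order of their place in it. Counts in this and all further gene lists are to be read against 12.4% risen and 22.9% fallen among all genes, 20.1% and 11.6% among all peaks away from starts, and 2.3% and 26.8% among all promoter peaks. Among 18 receptors that raise or lower cAMP, 4 rose and 3 fell (5 and 3 with library size alone, 1 to 3 and 3 with 1 library left out), beside 12.4% and 22.9% of all genes. The largest fall was at Adrb3, the adrenergic receptor typical of fat cells, with 11.1 and 14.7 CPM after forskolin, against 26.2 and 26.9 CPM in control (log2 fold change −1.04 ± 0.14, adjusted p = 6.66e-06). Its peaks fell at 4 of its 8 and rose at none, and the one with the smallest adjusted p, at chr8:27228222-27228751, had 1.71 and 1.81 CPM after forskolin, against 4.54 and 8.75 CPM in control. Mc2r, the ACTH receptor, had 26.6 and 25.1 CPM after forskolin, against 39.9 and 42.9 CPM in control (log2 fold change −0.68 ± 0.10, adjusted p = 3.95e-05). Adora1, an adenosine receptor that lowers cAMP, fell as well (−0.49), while Hcar2, the nicotinic acid receptor that restrains lipolysis, rose (0.57). These calls held under every alternative. The rise of Adrb1 (0.24, adjusted p = 0.0371) did not hold without S1, S3 or S4, with DESeq2, or with peaks assigned within 10 kb. Of the 90 peaks of the receptor genes away from starts, 13 rose (14.4%, 8 to 13 with 1 library left out) and 15 fell (16.7%, 10 to 14), beside 20.1% and 11.6% of all such peaks.

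For G proteins and adenylyl cyclases, 3 rose and 3 fell (6 and 2 with library size alone, 1 to 2 and 2 with 1 library left out) of 14 genes, beside 12.4% and 22.9% of all genes. Gnas, which encodes the stimulatory G protein α subunit, had 92.9 and 97.7 CPM after forskolin, against 124 and 124 CPM in control (log2 fold change −0.38 ± 0.08, adjusted p = 0.00137), and Gnai2, an inhibitory α subunit, had 132 and 139 CPM after forskolin, against 176 and 173 CPM in control (log2 fold change −0.37 ± 0.06, adjusted p = 0.00018). Adcy10, the soluble cyclase that forskolin does not activate, had 57.0 and 59.9 CPM after forskolin, against 41.7 and 43.7 CPM in control (log2 fold change 0.45 ± 0.10, adjusted p = 0.00109), and its promoter peak had 18.1 and 20.1 CPM after forskolin, against 7.37 and 6.61 CPM in control. Adcy3, a membrane cyclase, rose (0.33), a call lost without S1 or S4. Peaks of these genes away from starts numbered 145, of which 19 rose (13.1%, 11 to 21 with 1 library left out) and 19 fell (13.1%, 9 to 11), beside 20.1% and 11.6% of all such peaks.

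In the list of protein kinase A subunits and anchors, 2 rose and 7 fell (4 and 4 with library size alone, 1 to 2 and 3 to 6 with 1 library left out) of 17 (Akap2 was not in the annotation used). The regulatory subunit gene Prkar1a had 51.9 and 55.8 CPM after forskolin, against 70.4 and 76.5 CPM in control (log2 fold change −0.45 ± 0.09, adjusted p = 0.000605). Anchor genes went both ways: Akap10 had 40.0 and 45.6 CPM after forskolin, against 63.9 and 64.3 CPM in control (log2 fold change −0.58 ± 0.10, adjusted p = 0.000178), and Akap6 had 115 and 115 CPM after forskolin, against 90.0 and 88.3 CPM in control (log2 fold change 0.37 ± 0.08, adjusted p = 0.000949). Away from starts 47 rose (23.2%, 29 to 41 with 1 library left out) and 20 fell (9.85%, 10 to 20) of 203 peaks.

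Phosphodiesterase genes, whose products end the cAMP signal, held many opened sites. Of 18 genes 6 rose and 1 fell (9 and 0 with library size alone, 4 to 6 and 0 with 1 library left out), and of their 380 peaks away from starts 114 rose (30.0%, 84 to 99 with 1 library left out) and 26 fell (6.84%, 11 to 19). Long genes weigh most in this count. With promoter peaks included, Pde4d had 37 risen peaks, Pde10a 22, Pde4b 19 and Pde1a 8. Pde4b, a cAMP-specific enzyme known as cAMP-inducible, had 179.5 and 160.0 CPM after forskolin, against 93.3 and 87.9 CPM in control (log2 fold change 0.91 ± 0.07, adjusted p = 1.36e-08). Its promoter peak had 28.3 and 29.5 CPM after forskolin, against 17.8 and 18.7 CPM in control, and a site in the gene at chr4:102513954-102514342 had 9.40 and 6.94 CPM after forskolin, against 1.01 and 0.826 CPM in control. Pde10a, which breaks down cAMP and cGMP, had 389 and 392 CPM after forskolin, against 250.5 and 256 CPM in control (log2 fold change 0.62 ± 0.05, adjusted p = 1.92e-08), with a site at chr17:8646400-8646661 that had 11.6 and 11.7 CPM after forskolin, against 1.31 and 0.661 CPM in control. Pde1a, a calcium-dependent enzyme, had 104 and 104 CPM after forskolin, against 53.7 and 58.1 CPM in control (log2 fold change 0.89 ± 0.09, adjusted p = 1.53e-07). In each of these the libraries of the groups lay far apart. The site of Pde4d with the smallest adjusted p was chr13:109899567-109900081, with 23.9 and 24.9 CPM after forskolin, against 4.24 and 4.87 CPM in control. Pde3b, the insulin-activated enzyme of fat cells, was not called (0.18, adjusted p = 0.228, or 0.0446 with library size alone), with 38.9 and 42.1 CPM after forskolin, against 32.4 and 39.1 CPM in control. The fall of Pde4a (−0.21) was lost with library size alone.

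At the starts of CREB-family genes and their regulators 3 of 12 promoter peaks fell (0 to 3 with 1 library left out), beside 26.8% of all promoter peaks. Of 14 genes 2 rose and 4 fell (3 and 3 with library size alone, 2 and 1 to 3 with 1 library left out), and of 157 peaks away from starts 46 rose (29.3%, 28 to 37 with 1 library left out) and 17 fell (10.8%, 9 to 12). The salt-inducible kinase gene Sik3, whose product holds CRTC coactivators in the cytoplasm, had 264 and 262 CPM after forskolin, against 207 and 219 CPM in control (log2 fold change 0.30 ± 0.06, adjusted p = 0.000314) and risen peaks at 15 of its 39. Creb5 had 249 and 225 CPM after forskolin, against 193 and 187 CPM in control (log2 fold change 0.32 ± 0.06, adjusted p = 0.000535), and Atf7 had 116 and 119 CPM after forskolin, against 148 and 159.7 CPM in control (log2 fold change −0.39 ± 0.08, adjusted p = 0.000942). Crem, whose short product represses cAMP response elements, had 102 and 106 CPM after forskolin, against 102 and 107 CPM in control and was not called, although 4 of its 6 peaks rose and 1 fell.

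Early cAMP response genes, most of them transcription factors switched on within an hour or so of stimulation, were mixed. Of 32 genes 5 rose and 6 fell (10 and 3 with library size alone, 3 to 5 and 2 to 5 with 1 library left out). Fosl1, which encodes the AP-1 factor Fra-1, had 79.2 and 71.2 CPM after forskolin, against 42.3 and 38.5 CPM in control (log2 fold change 0.90 ± 0.10, adjusted p = 7.4e-07), and its 3 peaks all rose. Ier3, an early response gene, had 186 and 181 CPM after forskolin, against 106 and 109.7 CPM in control (log2 fold change 0.77 ± 0.07, adjusted p = 3.59e-08), and 8 of its 10 peaks rose. The one with the smallest adjusted p, at chr17:35776646-35777601, had 50.8 and 54.1 CPM after forskolin, against 18.5 and 15.0 CPM in control. The sum of Nr4a1 was not called with TMM (0.15, adjusted p = 0.0645) but was with library size alone (0.25, adjusted p = 0.00086), and its promoter peak rose as given above. Promoter peaks also rose at Ier3 (41.7 and 43.5 CPM after forskolin, against 31.0 and 32.0 CPM in control) and at Nr4a3 (44.1 and 43.4 CPM after forskolin, against 37.5 and 32.8 CPM in control), a call lost without S2, S3 or S4 and with DESeq2. By contrast Jund, an AP-1 partner, had 133 and 139 CPM after forskolin, against 177 and 201 CPM in control (log2 fold change −0.48 ± 0.10, adjusted p = 0.00131), and Cited2, a CBP-binding coregulator, had 102 and 110.1 CPM after forskolin, against 132 and 149 CPM in control (log2 fold change −0.41 ± 0.08, adjusted p = 0.000561). Fos had 184 and 189 CPM after forskolin, against 198 and 216 CPM in control and was not called. Of the 262 peaks away from starts 67 rose (25.6%, 51 to 60 with 1 library left out) and 22 fell (8.40%, 10 to 22).

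Of 30 thermogenic genes tested, 7 rose and 3 fell (9 and 2 with library size alone, 4 to 7 and 2 to 3 with 1 library left out). Ppargc1a, the coactivator that drives mitochondrial biogenesis in brown fat, had 299.9 and 308 CPM after forskolin, against 216 and 244 CPM in control (log2 fold change 0.40 ± 0.06, adjusted p = 2.97e-05). Within it 14 of its 52 peaks rose and 2 fell, and the site at chr5:51867963-51868802 had 31.9 and 32.3 CPM after forskolin, against 9.39 and 10.3 CPM in control. Ucp1, the uncoupling protein of brown and beige fat, had 7.23 and 6.46 CPM after forskolin, against 4.44 and 3.63 CPM in control (log2 fold change 0.77 ± 0.23, adjusted p = 0.0127), a call lost without S2 (adjusted p = 0.144) or S3 (0.0886). Only 3 peaks were assigned to it, and 1 of them, at chr8:83287735-83288017 2472 bp upstream of the gene, rose, with 3.48 and 2.84 CPM after forskolin, against 0.505 and 0.991 CPM in control (log2 fold change 2.03 ± 0.41, adjusted p = 6.86e-05). After rosiglitazone for 3 days, without forskolin, the same site had 4.34 and 2.90 CPM. Esrrg, a nuclear receptor that binds oxidative genes, rose (0.38), as did Tmem26, a surface protein used as a beige marker (0.46). Ppara, the nuclear receptor of fatty acid oxidation, had 195 and 208 CPM after forskolin, against 262 and 274 CPM in control (log2 fold change −0.41 ± 0.06, adjusted p = 9.81e-06), with 7 of 12 peaks fallen and 1 risen, though not with peaks assigned within 10 kb (adjusted p = 0.147). Acot11, a brown fat thioesterase, had 81.5 and 83.4 CPM after forskolin, against 116 and 109 CPM in control (log2 fold change −0.45 ± 0.08, adjusted p = 0.000104). Prdm16, Cidea and Dio2 were not called, and Dio2 had a single peak with 1.97 and 1.87 CPM after forskolin, against 2.02 and 0.991 CPM in control. Away from starts 53 rose (17.9%, 37 to 46 with 1 library left out) and 26 fell (8.78%, 15 to 25) of 296 peaks.

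Genes of lipolysis and the lipid droplet moved in both directions. Of 20 genes 5 rose and 7 fell (5 and 5 with library size alone, 4 to 5 and 0 to 8 with 1 library left out), and of 157 peaks away from starts 49 rose (31.2%, 37 to 41 with 1 library left out) and 15 fell (9.55%, 4 to 19). Plin2, a coat protein of lipid droplets, had 162 and 159 CPM after forskolin, against 93.4 and 101 CPM in control (log2 fold change 0.72 ± 0.07, adjusted p = 1.63e-07), with 13 of its 24 peaks risen and none fallen. Hilpda, an inhibitor of the lipase ATGL, had 127 and 132 CPM after forskolin, against 71.8 and 79.3 CPM in control (log2 fold change 0.77 ± 0.08, adjusted p = 4.93e-07), and the site at chr6:29246546-29247458 had 30.1 and 27.3 CPM after forskolin, against 7.67 and 8.84 CPM in control. Abhd5, the coactivator of ATGL that protein kinase A signalling releases, had 194 and 196 CPM after forskolin, against 127 and 135 CPM in control (log2 fold change 0.58 ± 0.06, adjusted p = 9.03e-07), with 13 of its 22 peaks risen. The site with the smallest adjusted p, at chr9:122378804-122379423, had 33.0 and 28.4 CPM after forskolin, against 7.87 and 5.29 CPM in control. Fabp4, the fatty acid binding protein of fat cells, had 164 and 178 CPM after forskolin, against 141 and 143 CPM in control (log2 fold change 0.27 ± 0.06, adjusted p = 0.00215), a call lost without S4 (adjusted p = 0.0536). G0s2, another inhibitor of ATGL, had 40.8 and 47.6 CPM after forskolin, against 56.3 and 75.6 CPM in control (log2 fold change −0.58 ± 0.11, adjusted p = 0.000418), lost without S2 (adjusted p = 0.0503). The lipase genes Pnpla2 (−0.30) and Lipe (−0.28) also fell, the first not with library size alone and the second not without S2.

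**Figure D4:**
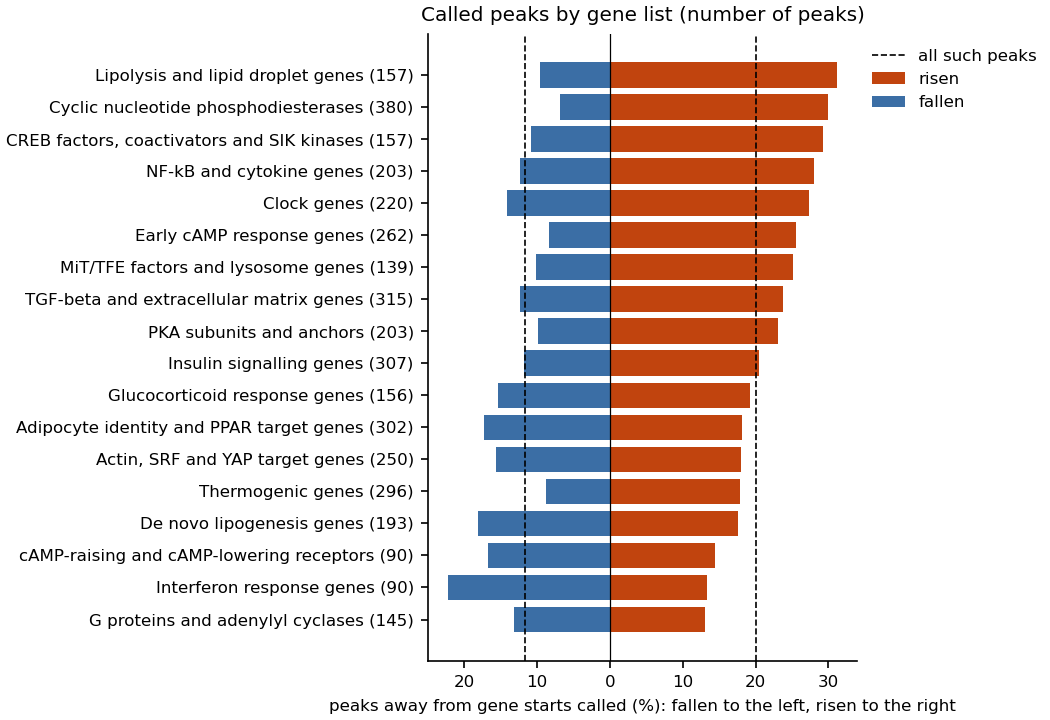
Share of peaks away from gene starts that rose (right of 0) or fell (left of 0) after 4 hours of forskolin (%, x axis), for the gene lists (y axis, number of peaks in brackets). Dashed lines mark all such peaks, 20.1% risen and 11.6% fallen, and the lipolysis and phosphodiesterase lists have the highest risen shares, 31.2% and 30.0%.

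Genes of adipocyte identity and PPARγ targets gave 25 tested members, of which 4 rose and 9 fell (4 and 7 with library size alone, 1 to 4 and 5 to 9 with 1 library left out). Cfd, the secreted protease adipsin, had 20.8 and 24.4 CPM after forskolin, against 40.8 and 39.3 CPM in control (log2 fold change −0.82 ± 0.12, adjusted p = 1.5e-05), and its promoter peak, whose sequence is given above, had 8.61 and 10.3 CPM after forskolin, against 20.6 and 20.6 CPM in control. Cebpa, a master factor of fat cell differentiation, had 114 and 125 CPM after forskolin, against 154 and 185 CPM in control (log2 fold change −0.51 ± 0.08, adjusted p = 8.84e-05), and the site at chr7:35141359-35141981 had 6.97 and 8.39 CPM after forskolin, against 21.5 and 27.2 CPM in control. Lep, the leptin gene, had 65.3 and 66.8 CPM after forskolin, against 83.2 and 96.5 CPM in control (log2 fold change −0.45 ± 0.09, adjusted p = 0.000575), with 4 of its 10 peaks fallen, and the site at chr6:29073526-29074436 had 3.29 and 4.41 CPM after forskolin, against 10.5 and 12.2 CPM in control. Adipoq, the adiponectin gene, was not called as a sum (−0.12, adjusted p = 0.319), with 2 of its 7 peaks risen and 2 fallen. Its promoter peak nevertheless fell, with 16.7 and 18.5 CPM after forskolin, against 29.98 and 32.7 CPM in control (log2 fold change −0.83 ± 0.14, adjusted p = 8.14e-07). Pparg itself had 219 and 229.8 CPM after forskolin, against 212 and 223 CPM in control and was not called, while 1 of its promoter peaks rose, with 12.8 and 15.0 CPM after forskolin, against 6.86 and 9.08 CPM in control (log2 fold change 0.79 ± 0.18, adjusted p = 0.000523). Bscl2, which encodes seipin, rose (0.41). Of the 302 peaks away from starts 55 rose (18.2%, 40 to 46 with 1 library left out) and 52 fell (17.2%, 31 to 49).

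In de novo lipogenesis, 0 rose and 11 fell (2 and 7 with library size alone, 0 and 4 to 9 with 1 library left out) of 20 genes, beside 12.4% and 22.9% of all genes. Srebf1, the master factor of fatty acid synthesis, had 103 and 111 CPM after forskolin, against 141 and 159 CPM in control (log2 fold change −0.48 ± 0.08, adjusted p = 9.16e-05), with 6 of its 9 peaks fallen. The desaturase genes Fads2 and Fads1, which are neighbours, had log2 fold changes of −0.45 and −0.38, and Thrsp, a lipogenic coregulator, −0.53. These held under every alternative. Fasn, the fatty acid synthase, fell (−0.35), but not without S2. Scd1 had 287 and 295 CPM after forskolin, against 258 and 273 CPM in control and was not called (adjusted p = 0.0535, or 0.00147 with library size alone). Of 22 insulin signalling genes 2 rose and 11 fell (3 and 7 with library size alone, 1 to 2 and 3 to 8 with 1 library left out). Igf1r, the IGF-1 receptor, had 93.9 and 104 CPM after forskolin, against 130.3 and 136 CPM in control (log2 fold change −0.43 ± 0.07, adjusted p = 0.000164). Pik3r1, a PI3-kinase regulatory subunit, had 137 and 149 CPM after forskolin, against 177 and 185 CPM in control (log2 fold change −0.34 ± 0.07, adjusted p = 0.000534). Trib1, a pseudokinase, rose (0.27), but not with peaks assigned within 10 kb. At their starts 13 of 20 promoter peaks fell (4 to 12 with 1 library left out), beside 26.8% of all promoter peaks. Away from starts 63 rose (20.5%, 47 to 53 with 1 library left out) and 36 fell (11.7%, 24 to 33) of 307, near the 20.1% and 11.6% of all such peaks.

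For NF-κB and cytokine genes, 7 rose and 4 fell (9 and 3 with library size alone, 6 to 7 and 1 to 4 with 1 library left out) of 25. The alarmin Il33 had 80.5 and 76.1 CPM after forskolin, against 44.7 and 45.8 CPM in control (log2 fold change 0.79 ± 0.09, adjusted p = 1.3e-06), with 7 of its 18 peaks risen. Il1rl1, which encodes its receptor, had 94.0 and 90.6 CPM after forskolin, against 52.1 and 54.2 CPM in control (log2 fold change 0.80 ± 0.10, adjusted p = 2.02e-06), with 8 of its 11 peaks risen. Ptgs2, the inducible cyclooxygenase, had 114 and 97.8 CPM after forskolin, against 65.3 and 61.2 CPM in control (log2 fold change 0.74 ± 0.09, adjusted p = 2.37e-06), and its promoter peak had 27.4 and 25.8 CPM after forskolin, against 17.8 and 14.7 CPM in control. The site of Il33 with the smallest adjusted p was chr19:29942397-29942768, with 10.2 and 13.5 CPM after forskolin, against 1.62 and 1.65 CPM in control. Csf1, a macrophage growth factor, had 213 and 216 CPM after forskolin, against 274 and 269 CPM in control (log2 fold change −0.34 ± 0.05, adjusted p = 6.35e-05), whereas Tnf and Il1b had 1 peak each below 3 CPM and were not called. Of 203 peaks away from starts 57 rose (28.1%, 38 to 50 with 1 library left out) and 25 fell (12.3%, 15 to 20). Of 20 interferon response genes 1 rose and 8 fell (1 and 7 with library size alone, 1 and 5 to 8 with 1 library left out), with a median log2 fold change of −0.32, against −0.12 over all genes. Irf1, a transcription factor of the interferon response, had 156 and 165 CPM after forskolin, against 231 and 246 CPM in control (log2 fold change −0.57 ± 0.06, adjusted p = 5.17e-07), with 6 of its 14 peaks fallen and none risen. Ifit2, an antiviral gene, had 31.5 and 21.6 CPM after forskolin, against 54.2 and 59.7 CPM in control (log2 fold change −1.11 ± 0.13, adjusted p = 2.15e-06), with 5 of its 7 fallen. Its neighbour Ifit1 had a single peak that rose, with 4.602 and 4.77 CPM after forskolin, against 0.909 and 1.49 CPM in control. At starts 9 of 17 promoter peaks fell (3 to 10 with 1 library left out), beside 26.8% of all promoter peaks. Away from starts 12 rose (13.3%, 8 to 11 with 1 library left out) and 20 fell (22.2%, 14 to 16) of 90.

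Of 15 glucocorticoid response genes 4 rose and 4 fell (5 and 2 with library size alone, 2 to 3 and 1 to 4 with 1 library left out). Mt2, a metallothionein, had 39.6 and 40.0 CPM after forskolin, against 22.8 and 23.2 CPM in control (log2 fold change 0.79 ± 0.10, adjusted p = 5.68e-06), and Klf9, a Krüppel-like factor, had 199 and 198 CPM after forskolin, against 239 and 247 CPM in control (log2 fold change −0.29 ± 0.06, adjusted p = 0.000831). Tsc22d3, which encodes GILZ, fell (−0.30), but not without S2 or with peaks assigned within 10 kb. In the glucocorticoid list 30 rose (19.2%, 24 to 27 with 1 library left out) and 24 fell (15.4%, 13 to 19) of 156 peaks away from starts. Of 20 clock genes 1 rose and 8 fell (3 and 7 with library size alone, 1 and 4 to 8 with 1 library left out), and of 220 peaks away from starts 60 rose (27.3%, 42 to 49 with 1 library left out) and 31 fell (14.1%, 23 to 26). The falls included the PAR bZIP output factors Tef and Hlf. Tef had 277 and 274 CPM after forskolin, against 378 and 392 CPM in control (log2 fold change −0.48 ± 0.06, adjusted p = 3.78e-06), and Hlf had 79.1 and 87.3 CPM after forskolin, against 121 and 129 CPM in control (log2 fold change −0.59 ± 0.08, adjusted p = 5.57e-06), with 6 of its 13 peaks fallen. Rorb had 127 and 121 CPM after forskolin, against 87.7 and 90.4 CPM in control (log2 fold change 0.48 ± 0.08, adjusted p = 7.43e-05), with 9 of its 20 peaks risen, among them the site described above. The core genes Clock, Arntl, Per1 and Per2 were not called.

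Actin, SRF and YAP target genes had no member that rose. Of 25 genes 0 rose and 14 fell (1 and 9 with library size alone, 0 to 1 and 6 to 10 with 1 library left out), beside 12.4% and 22.9% of all genes. Acta2, smooth muscle actin, had 30.6 and 26.3 CPM after forskolin, against 49.9 and 53.2 CPM in control (log2 fold change −0.86 ± 0.11, adjusted p = 4.28e-06), and its promoter peak had 8.81 and 7.91 CPM after forskolin, against 14.9 and 16.3 CPM in control. Myl9, a myosin light chain, had 5.52 and 6.70 CPM after forskolin, against 10.4 and 11.7 CPM in control (log2 fold change −0.86 ± 0.19, adjusted p = 0.00177). Tagln, another smooth muscle gene, was weak, with 1.97 and 1.87 CPM after forskolin, against 4.24 and 6.03 CPM in control (log2 fold change −1.43 ± 0.31, adjusted p = 0.00142), a call lost without S2. Ccn1, a YAP target, had 199 and 193 CPM after forskolin, against 256 and 247 CPM in control (log2 fold change −0.36 ± 0.06, adjusted p = 4.05e-05), with 6 of its 17 peaks fallen and none risen. At starts 13 of 24 promoter peaks fell (4 to 9 with 1 library left out), beside 26.8% of all promoter peaks. Away from starts 45 rose (18%, 29 to 40 with 1 library left out) and 39 fell (15.6%, 22 to 31) of 250. Genes of TGF-β signalling and the extracellular matrix gave 25 tested members, of which 7 rose and 7 fell (10 and 4 with library size alone, 5 to 6 and 3 to 4 with 1 library left out). Among collagens, Col3a1 had 57.0 and 52.6 CPM after forskolin, against 32.1 and 31.8 CPM in control (log2 fold change 0.78 ± 0.10, adjusted p = 5.01e-06), and Col4a1, of the basement membrane, had 359 and 355 CPM after forskolin, against 271 and 286 CPM in control (log2 fold change 0.36 ± 0.05, adjusted p = 1.83e-05). Tgfb2, a TGF-β ligand, had 65.8 and 63.8 CPM after forskolin, against 88.4 and 102 CPM in control (log2 fold change −0.56 ± 0.08, adjusted p = 3.58e-05), and Thbs1, an activator of latent TGF-β, fell (−0.45). Col1a1 had 135 and 135 CPM after forskolin, against 141 and 143 CPM in control and was not called. Of 315 peaks away from starts 75 rose (23.8%, 49 to 63 with 1 library left out) and 39 fell (12.4%, 23 to 28).

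MiT/TFE factors and the lysosome genes they control were examined because of the Mitf site. Of 20 genes 2 rose and 6 fell (3 and 5 with library size alone, 1 to 2 and 3 to 6 with 1 library left out). Mitf as a sum had 157 and 148 CPM after forskolin, against 138 and 128 CPM in control (log2 fold change 0.20 ± 0.07, adjusted p = 0.0313), with 8 of 31 peaks risen and 3 fallen. That call was lost without S2, S3 or S4 and with DESeq2 (adjusted p = 0.258, 0.228, 0.0555 and 0.0529). Uvrag, an autophagy gene, had 228 and 221 CPM after forskolin, against 176 and 185 CPM in control (log2 fold change 0.31 ± 0.06, adjusted p = 0.000292). Lamp1, a lysosomal membrane protein, had 35.8 and 37.6 CPM after forskolin, against 56.9 and 56.1 CPM in control (log2 fold change −0.62 ± 0.12, adjusted p = 0.000575), and Gpnmb, a MITF target, had 31.4 and 34.1 CPM after forskolin, against 48.5 and 48.1 CPM in control (log2 fold change −0.56 ± 0.10, adjusted p = 0.000223). Of 139 peaks away from starts 35 rose (25.2%, 27 to 32 with 1 library left out) and 14 fell (10.1%, 8 to 12).

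All 12 adipocyte markers checked had open chromatin in both groups, with summed levels of 1098 and 1183 CPM after forskolin, against 1189 and 1301 CPM in control. Of these 2 rose and 5 fell (2 and 4 with library size alone). Accessibility does not show that a gene is expressed. For adipose progenitor markers the sums were 549 and 522 CPM after forskolin, against 517 and 478 CPM in control. Of 12 such genes 3 rose and 1 fell (5 and 0 with library size alone). Among those that rose, Dcn, the proteoglycan decorin, had 47.5 and 38.9 CPM after forskolin, against 26.2 and 21.8 CPM in control (log2 fold change 0.85 ± 0.13, adjusted p = 2.56e-05), while Cd55 had 18.01 and 15.8 CPM after forskolin, against 6.06 and 7.60 CPM in control (log2 fold change 1.30 ± 0.17, adjusted p = 6.66e-06). Markers of cells that should not be in the culture also had signal. The 10 tested macrophage markers summed to 245 and 245 CPM after forskolin, against 219.6 and 214 CPM in control, with 4 risen and 2 fallen (5 and 0 with library size alone, 2 to 4 and 0 with 1 library left out). Of these Csf1r, the receptor of CSF1, had 23.6 and 21.8 CPM after forskolin, against 7.27 and 9.002 CPM in control (log2 fold change 1.47 ± 0.15, adjusted p = 3.7e-07). Csf1r neighbours Pdgfrb, which is in the list of progenitor markers. Peaks were assigned by position, which does not tell which of these genes a peak serves. The 10 endothelial markers summed to 283 and 268 CPM after forskolin, against 219 and 219.5 CPM in control, with 5 risen and none fallen (5 and 0 with library size alone). Among those that rose, Kdr, a VEGF receptor, had 64.4 and 60.3 CPM after forskolin, against 40.1 and 42.2 CPM in control (log2 fold change 0.60 ± 0.10, adjusted p = 6.79e-05). Its call was lost with peaks assigned within 10 kb. The macrophage and endothelial sums were both higher in each forskolin library than in each control library. Markers were tested only where they passed the low-count filter, as 10 of 12 macrophage and 8 of 10 skeletal muscle markers did. The other markers had too few counts or no peak assigned. With 8 tested skeletal muscle markers, 1 rose and 1 fell (1 and 0 with library size alone), and sums were 186 and 178 CPM after forskolin, against 188 and 208 CPM in control. The 10 Schwann cell and neuronal markers had 2 risen and 1 fallen (2 and 1 with library size alone) and sums of 259 and 259 CPM after forskolin, against 260.0 and 268 CPM in control. The part of other cell types in the changes was not tested, and a change in the number of cells of a type and a change in their chromatin cannot be told apart in bulk libraries.

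The sites called at 4 hours were also read in the other groups, as a description without a test, since the sites were chosen on the control and 4 hour libraries. For the 21999 risen peaks, the median was 1.85 CPM in control, 4.92 CPM at 4 hours, 3.77 CPM at 1 day and 3.35 CPM at 3 days of forskolin, and 2.06 CPM after rosiglitazone. The 15405 fallen peaks had a median of 8.06 CPM in control, 4.08 CPM at 4 hours, 5.49 CPM at 1 day, 5.73 CPM at 3 days and 7.43 CPM after rosiglitazone. For both of these sets, the medians at 1 and 3 days of forskolin lay between those of control and 4 hours in each library. The 244 risen promoter peaks had medians of 3.73 CPM in control, 7.85 CPM at 4 hours, 6.74 CPM at 1 day, 6.01 CPM at 3 days and 4.40 CPM after rosiglitazone. The 2845 fallen promoter peaks did not follow that order, with 51.1 CPM in control, 39.1 CPM at 4 hours, 38.6 CPM at 1 day, 43.5 CPM at 3 days and 44.2 CPM after rosiglitazone. Single sites differed. The Mitf site had 5.31 and 5.81 CPM at 1 day, 5.96 and 4.35 CPM at 3 days, and 0.344 and 0.494 CPM after rosiglitazone, so it was open in all 6 forskolin libraries. At Tlr9 the promoter had 7.43 and 9.17 CPM at 1 day and 8.49 and 6.80 CPM at 3 days, beside 8.94 and 7.18 CPM at 4 hours. The Farsb site, in contrast, had 1.62 and 1.68 CPM at 1 day and 1.06 and 0.87 CPM at 3 days.

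**Figure D5:**
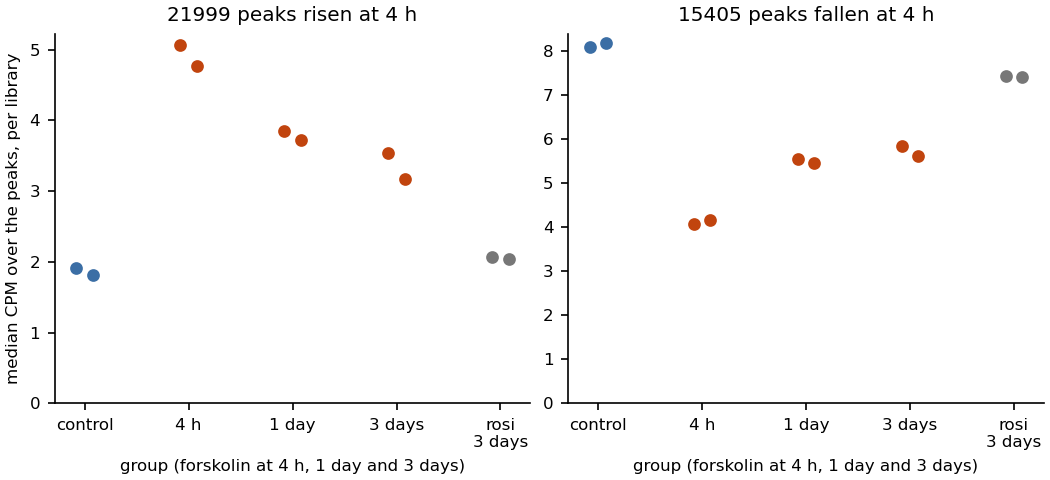
Median level over the peaks that rose (left) or fell (right) at 4 hours of forskolin (CPM, y axis), with 1 point per library, for control, forskolin at 4 hours, 1 day and 3 days, and rosiglitazone for 3 days (x axis). The risen peaks stand at 1.85 CPM in control, 4.92 CPM at 4 hours and 3.35 CPM at 3 days, and the rosiglitazone libraries lie near control.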

How the data were processed

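ATAC-seq counts of reads per peak for 10 libraries were used as deposited by the authors, as 1 table of raw counts over a common set of 122984 peaks. Per the submitters' processing notes, the tools were MACS2, featureCounts, Bowtie2, fastp, Picard, SAMtools and deepTools, with the builds GRCm38 and mm10. Their versions and settings are not given in the sources used here. The columns carry running library numbers and a group name, and each group had 2 libraries.

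The test of counts was that of edgeR 4.0.16, run in R 4.3.3 (robust quasi-likelihood F test, TMM factors, low counts removed with filterByExpr, 1 fit over all 10 libraries, Benjamini-Hochberg adjustment over all peaks or genes). The 2 libraries of a group differed beyond sampling noise (chi-square per degree of freedom 2.37 after forskolin and 2.22 in control), and none was counted as a repeat. An exact permutation test of 2 against 2 libraries cannot go below 0.333. Peaks were assigned to the protein-coding RefSeq gene (GRCm38.p6) that held their centre, and otherwise to the gene whose end was nearest, up to 50000 bp away. A promoter peak held, or lay within 500 bp of, an annotated start. For 4395 genes with no start in the table used, peaks within 1000 bp of a gene end were kept as a class apart. Gene values are sums over assigned peaks. On simulated data of 118954 peaks, 100 were changed 2-fold and 100 were changed 4-fold, with the same spread set for all peaks. The test recovered 17% of the 2-fold and 73% of the 4-fold changes with 3 false calls.

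The comparison, its gene lists and the shown promoters were chosen with earlier results of these data known. Named were the 8 most risen and 8 most fallen peaks at or above the median level (2.70 CPM) whose groups did not overlap, 1 a gene, 6 promoter peaks in each direction, the 5 genes with most risen and with most fallen peaks, 3 members a list by adjusted p, and fixed genes such as Ucp1 and Lep. The 8 and 8 peaks lay in a gene or at most 50000 bp from one. Predicted (Gm), Riken, olfactory and vomeronasal genes were passed over for these, for the promoter peaks and for the 5 genes. Other list members were added with their values known. Alternatives were other scalings, DESeq2 1.42.0, other distances, a threshold of 0.01, the 4 libraries alone and each library left out in turn. Counting intervals (95%, exact) cover counting error only.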

Additional observations from a re-analysis of the deposited data

How the results depend on the processing

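No paired analysis was possible because the columns of the count table carry running library numbers, which cannot be tied to the replicates 1 and 2 that the labels give in each group. Of 95 genes and peaks named by rule, 90 were called and 84 of these kept their call under every alternative, among them all 28 named peaks. Most were picked for large changes or small adjusted p in these same data, so this count does not describe calls in general. With 1 library left out in turn, risen peaks numbered 14923 to 17932, fallen peaks 8329 to 11588, and 60.1% to 64.6% of called peaks had risen. Promoter peaks then numbered 151 to 190 risen and 731 to 1976 fallen, and genes 1238 to 1644 risen and 1408 to 2906 fallen, with 35.2% to 48.7% of called genes risen. An adjusted p below 0.01 gave 8617 fallen peaks, 153 risen and 1142 fallen promoter peaks, and 1387 risen and 1935 fallen genes. Library size alone gave 68.9% of called peaks risen, 1630 fallen promoter peaks, 2282 fallen genes and 56.9% of called genes risen. Offsets that follow the level gave 418 risen and 1077 fallen promoter peaks, 2175 fallen genes and 57.8% of called genes risen. Library size without the 17 peaks over 5000 counts, a choice made after seeing the data, gave 50.05% of called genes risen. Uncalled gene sums changed sign at Adipoq (0.018 with level-dependent offsets) and Trabd2b (0.0084 with library size alone). The cause was not tested. With 2 libraries a group, changes under 2-fold at weak peaks may have gone undetected.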
